A study of Homo sapiens with 10 samples.

Results

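FGF13 and the FGF receptors FGFR1, FGFR2, FGFR3, FGFR4 and FGFRL1 were followed by their gene symbols in RNA-seq of K562 cells, an established human chronic myeloid leukemia line. They are 6 of the 23284 genes listed. The cells received vehicle (DMSO), CBP30 or I-CBP112 for 48 h, each compound at 2 and 5 µM, and every one of the 5 conditions had 2 samples that the labels call biological replicates. CBP30 and I-CBP112 both occupy the bromodomains of the acetyltransferases CREBBP and EP300, the modules that bind acetylated lysine. All groups were cultures of the same unmodified line, and all treatments were compared with the same 2 DMSO samples. FGF13 and FGFR3 fell with both compounds, and the other receptors were followed to see how far this extended. FGFR1 rose with both compounds, FGFR4 was not called, FGFRL1 fell slightly with 5 µM CBP30, and FGFR2 was close to 0 in every sample.

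Fibroblast growth factors are secreted ligands that bind receptor tyrosine kinases on the cell surface together with heparan sulfate, a sugar chain carried by membrane proteins. The activated kinases FGFR1 to FGFR4 signal through adaptors to the RAS and MAP kinase cascade, to PI3 kinase and to phospholipase C gamma, and the pathway switches on its own inhibitors of the Sprouty and SPRED families. FGFRL1 is a related receptor that binds ligand but has no kinase domain. FGF13 is not a classical ligand. It belongs to the FGF homologous factors, which stay inside the cell and are best known as partners of voltage-gated sodium channels.

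The sequences just upstream of FGF13, FGFR3 and FGFR4 are shown because the first 2 of these genes fell with both compounds and the last was not called. They are the 250 bases before RefSeq start sites (GRCh38.p14) that overlap no annotated exon, placed on GRCh37, the assembly of hg19, by their only exact match. Capitals mark matches on either strand to a GATA motif (AGATAA or AGATAG, and also TGATAA or TGATAG), an E-box (CACGTG) or a GC box (GGGCGG). Of all 35116 RefSeq promoters at this length, 22.3% held the GATA motif, 6.34% the E-box and 42.6% the GC box.
FGF13 promoter 1 (chrX:138287186-138287435, minus strand): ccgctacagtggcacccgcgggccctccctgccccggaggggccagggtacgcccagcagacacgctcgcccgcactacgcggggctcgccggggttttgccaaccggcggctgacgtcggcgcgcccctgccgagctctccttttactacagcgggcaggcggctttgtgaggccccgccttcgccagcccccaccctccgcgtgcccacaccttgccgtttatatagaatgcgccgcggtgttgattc
FGF13 promoter 2 (chrX:137821516-137821765, minus strand): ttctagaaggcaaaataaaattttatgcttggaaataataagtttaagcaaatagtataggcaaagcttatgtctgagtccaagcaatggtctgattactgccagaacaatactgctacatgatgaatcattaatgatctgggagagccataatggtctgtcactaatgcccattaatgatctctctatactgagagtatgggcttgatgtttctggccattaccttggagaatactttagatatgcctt
FGFR3 promoter (chr4:1794770-1795019, plus strand): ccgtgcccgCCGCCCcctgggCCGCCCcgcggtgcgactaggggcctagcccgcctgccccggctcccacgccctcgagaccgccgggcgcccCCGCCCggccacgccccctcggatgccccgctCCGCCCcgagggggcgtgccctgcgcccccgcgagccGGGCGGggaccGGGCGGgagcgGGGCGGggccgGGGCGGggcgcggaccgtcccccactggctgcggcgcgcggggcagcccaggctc
FGFR4 promoter 2 (chr5:176516301-176516550, plus strand): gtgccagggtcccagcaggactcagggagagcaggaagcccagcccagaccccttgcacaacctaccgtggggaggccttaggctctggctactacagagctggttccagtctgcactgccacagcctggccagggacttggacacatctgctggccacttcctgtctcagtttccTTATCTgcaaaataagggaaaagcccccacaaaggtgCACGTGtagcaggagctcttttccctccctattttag
The FGF13 promoters held no match. Promoter 1 of FGF13 had 70.4% G and C and 29 CpG dinucleotides and promoter 2 had 36.4% and 0, against a median of 58.0% G and C over all promoters. The FGFR3 promoter held 8 GC boxes and 40 CpG dinucleotides at 86.8% G and C. Promoter 2 of FGFR4 held 1 GATA match, 1 E-box and 2 CpG dinucleotides at 57.2%. Promoter 1 of FGFR4 overlaps annotated exons and is not shown. It held 7 GC boxes and 24 CpG dinucleotides at 79.6% G and C, with no GATA match or E-box. FPKM per gene do not separate transcripts from different start sites.

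The values are FPKM, fragment numbers scaled to transcript length and library size, which allow levels to be compared between genes per transcript length. With DMSO, FGF13 had the highest level of the family at 21.7 ± 0.0400 FPKM (SD, n = 2). It was followed by FGFR1 at 7.16 ± 0.0451, FGFRL1 at 6.82 ± 0.257, FGFR4 at 5.15 ± 0.193 and FGFR3 at 3.69 ± 0.367 FPKM. The samples of neighbouring genes in this order did not overlap, although the lowest FGFR1 value, 7.13, and the highest FGFRL1 value, 7.0, lay close together. With 5 µM CBP30 the order had changed. FGFR1 led at 28.4 ± 0.754 FPKM, FGFRL1 and FGF13 had overlapping samples with means of 5.91 FPKM each, and FGFR3 was at 0.951 ± 0.112.

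FGFR2 is an epithelial and mesenchymal receptor kinase gene (hg19, chr10:123237846-123357972, minus strand). Its samples ranged from 0.0286 to 0.128 FPKM, with both extremes in treated groups, and it stayed under the mean of 0.5 FPKM required for testing. The other 5 members were tested among 12788 genes with limma on log2(FPKM + 1), and a Benjamini-Hochberg adjusted p under 0.05 was called. Fold changes on this scale understate the change of genes with low values. The p-values measure the spread between these samples only.

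Of the libraries, replicate 1 of 2 µM CBP30 stood apart. Against DMSO, the quintile of genes with the shortest transcripts had a median log2 difference of 0.26 there and the longest quintile of -0.28, where the second sample of that group had 0.00 and -0.02. The 5 µM CBP30 samples showed the opposite at under 0.12 in size. The part of this trend in the results was not tested. Values without replicate 1 or with the trend removed are given beside the member results and list counts they move. The depth in reads is unknown from FPKM, and relative depth estimated from 452 genes near the detection limit ranged from 0.946 to 1.05 times the mean. The erythroid markers GATA1, from 52.7 to 171 FPKM, and HBG1, from 92.6 to 255 FPKM, were abundant throughout, as was TAL1. KLF1 ranged from 8.4 to 68.8 FPKM. Of markers of other cell types, MS4A1 was at 0, CDH1 and COL3A1 were at or under 0.0518, CD3E and COL1A1 ranged from 0.442 to 3.31, and CD3D and EPCAM reached 27.3 and 59.7 FPKM.

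**Figure D1:**
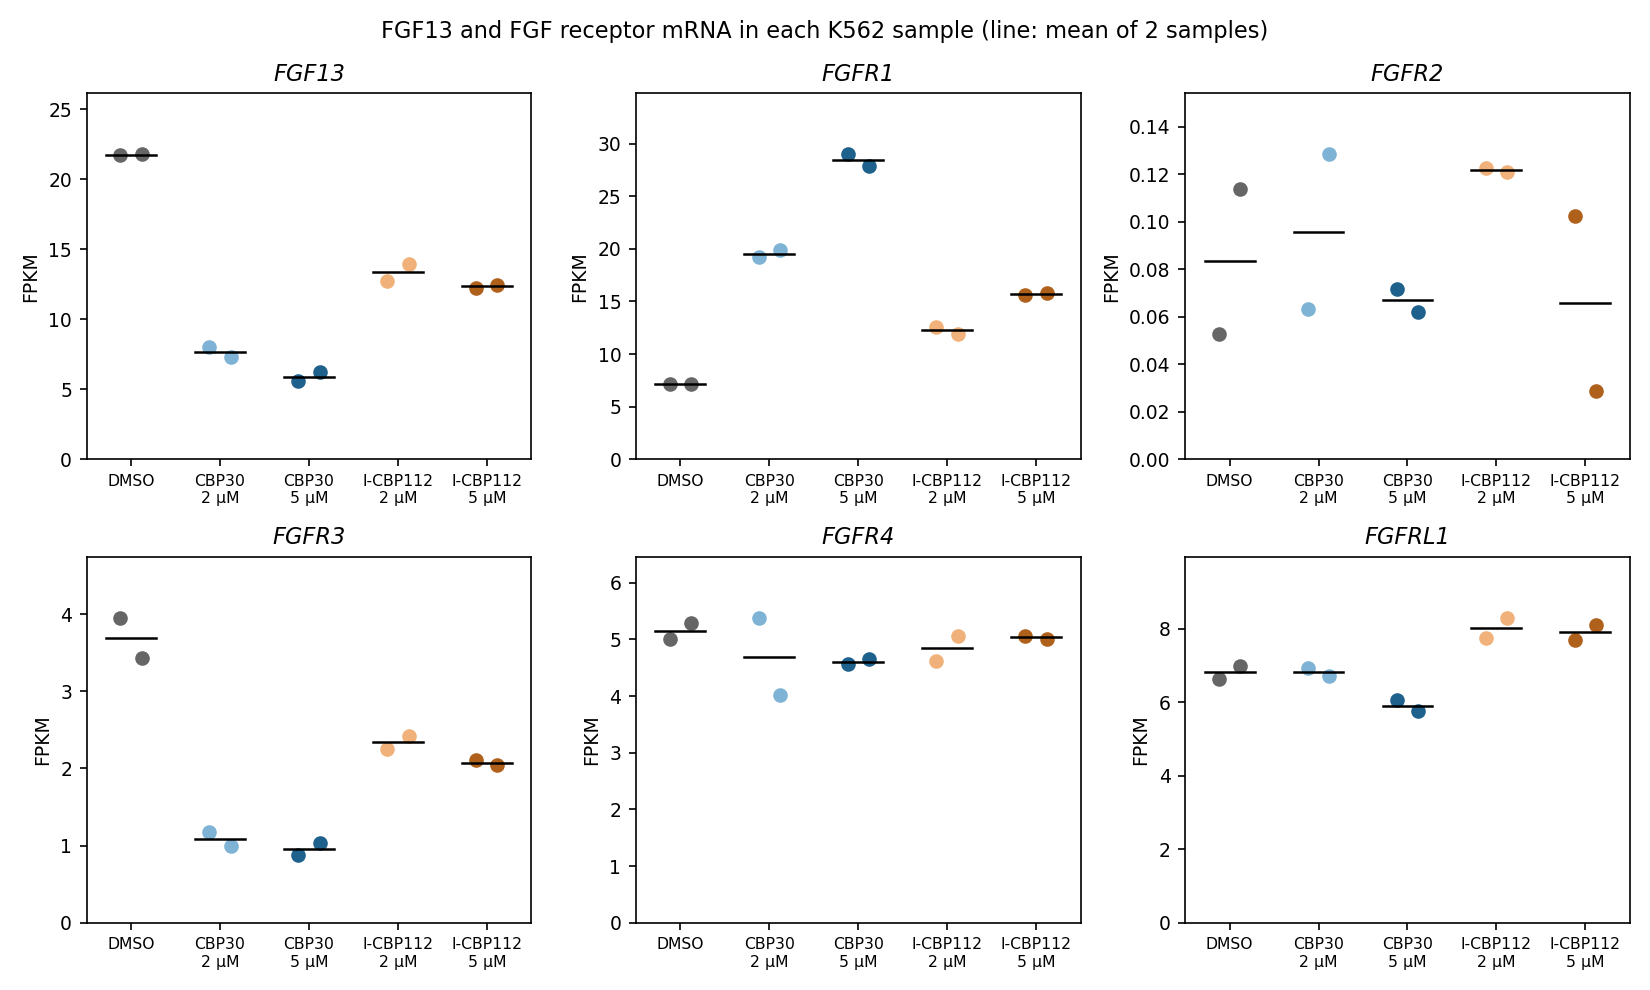
FPKM (y axis, starting at 0, own range per gene) of FGF13 and the 5 receptors in each sample, by condition (x axis); points are samples and lines are means of 2 samples. FGF13 and FGFR3 lie lower in all 8 treated samples than in either DMSO sample, whereas FGFR1 lies higher in all of them.

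FGF13 lies on the X chromosome (hg19, chrX:137696888-138304939, minus strand). FGF13 measured 21.7 and 21.8 FPKM in the DMSO samples, 8.01 and 7.30 with 2 µM CBP30, and 5.56 and 6.26 with 5 µM CBP30. With I-CBP112 it measured 12.7 and 14.0 FPKM at 2 µM and 12.3 and 12.5 at 5 µM. No treated sample overlapped DMSO, and both CBP30 groups lay under both I-CBP112 groups. The log2 fold changes and their limma intervals were -1.40 (95% interval -1.57 to -1.22) and -1.72 (-1.89 to -1.55) for 2 and 5 µM CBP30, and -0.67 (-0.84 to -0.49) and -0.77 (-0.94 to -0.59) for I-CBP112. Ranked by fold change, FGF13 was between the 119th and the 129th lowest of the 12788 genes in each of the 4 treatments. The call for 2 µM I-CBP112 (adjusted p = 0.00941) was lost without DMSO replicate 1, DMSO replicate 2 or the treated replicate 1 (adjusted p up to 0.0929). The longest annotated FGF13 transcript has 19575 bases. Removing the length trend with that length gave -1.11 for 2 µM CBP30 and ended the call for 2 µM I-CBP112 (adjusted p = 0.0756), whereas the median length of its transcripts gave -1.43 and -0.66, both called.

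FGFR3 encodes a receptor kinase known for its restraint of bone growth and for rearrangements in myeloma, and lies on chromosome 4 (hg19, chr4:1795020-1810599, plus strand). FGFR3 was measured at 3.95 and 3.43 FPKM in the DMSO samples, 1.18 and 0.991 with 2 µM CBP30, and 0.872 and 1.03 with 5 µM CBP30. The I-CBP112 samples had 2.26 and 2.42 FPKM at 2 µM and 2.11 and 2.05 at 5 µM. All treated samples lay under DMSO, and the samples of the CBP30 concentrations overlapped each other. In FPKM the means were 29.4% and 25.8% of DMSO for 2 and 5 µM CBP30 and 63.4% and 56.3% for I-CBP112. The log2 fold changes of -1.17 (95% interval -1.38 to -0.96) and -1.26 (-1.47 to -1.06) with CBP30 were called by limma at adjusted p = 0.000228 and 5.55e-05. With I-CBP112 they were -0.49 (-0.70 to -0.28, adjusted p = 0.0499) at 2 µM and -0.61 (-0.81 to -0.40, adjusted p = 0.0100) at 5 µM. The call at 2 µM I-CBP112 was lost in 15 of the 19 alternative fits that included FGFR3, with adjusted p from 0.0201 to 0.281, and the fold change was negative in all of them. The call at 5 µM I-CBP112 was lost without DMSO replicate 1 or either treated replicate, with adjusted p up to 0.0802. A pseudocount of 0.1 in place of 1 gave larger log2 fold changes, of -1.68 and -1.85 for CBP30.

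FGFR1, the receptor kinase most widely expressed in mesenchymal tissues and the one fused to other genes in a rare myeloid neoplasm, lies on chromosome 8 (hg19, chr8:38257733-38326352, minus strand). Its promoter sequence was not used here. The DMSO samples measured 7.19 and 7.13 FPKM, those with 2 µM CBP30 19.2 and 19.9, and those with 5 µM CBP30 29.0 and 27.9. I-CBP112 gave 12.6 and 11.9 FPKM at 2 µM and 15.6 and 15.8 at 5 µM. The 5 groups did not overlap anywhere, and within each compound the samples at 5 µM were above those at 2 µM. The means were 2.73-fold and 3.97-fold that of DMSO with 2 and 5 µM CBP30, and 1.71-fold and 2.2-fold with I-CBP112. On the log2 scale the rises were 1.33 (95% interval 1.22 to 1.45), 1.85 (1.73 to 1.97), 0.70 (0.58 to 0.82) and 1.04 (0.92 to 1.15), with limma adjusted p = 1.59e-05, 1.1e-06, 0.00188 and 0.000128. FGFR1 was between the 119th and the 160th highest of the 12788 genes in each treatment. Over the 20 alternative fits, the call was lost once, for 2 µM I-CBP112 when only those samples and DMSO entered the fit (adjusted p = 0.0521).

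LETM2 overlaps FGFR1 on the opposite strand (hg19, chr8:38243725-38267045, plus strand). Libraries were stranded, but whether counting used the strand is not given in the sources used here. LETM2 measured 0.879 and 0.782 FPKM with DMSO and 1.73 and 1.75 with 5 µM CBP30, against 29.0 and 27.9 for FGFR1. It rose with both CBP30 concentrations (log2 fold changes 0.36 and 0.58, limma adjusted p = 0.0362 and 0.00319).

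FGFR4 is the receptor kinase best known from liver, where it receives FGF19, and lies on chromosome 5 (hg19, chr5:176513906-176525145, plus strand). FGFR4 measured 5.01 and 5.28 FPKM with DMSO, 5.38 and 4.01 with 2 µM CBP30, and 4.56 and 4.65 with 5 µM CBP30. With I-CBP112 it measured 4.62 and 5.06 FPKM at 2 µM and 5.05 and 5.01 at 5 µM. The 2 µM CBP30 samples lay on both sides of DMSO, and the 5 µM CBP30 samples lay under it. No treatment was called, with log2 fold changes between -0.13 and -0.03 and limma adjusted p between 0.356 and 0.935. The 95% intervals lay between -0.39 and 0.23, and smaller differences were not detectable here. Without replicate 1 of 2 µM CBP30 the remaining sample gave -0.29 (adjusted p = 0.0162), and without replicate 2 it gave 0.05.

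FGFRL1, the receptor without a kinase domain, lies on chromosome 4 (hg19, chr4:1003724-1020686, plus strand). It measured 6.64 and 7.0 FPKM with DMSO, 6.94 and 6.73 with 2 µM CBP30, and 6.05 and 5.77 with 5 µM CBP30. With I-CBP112 it measured 7.75 and 8.30 FPKM at 2 µM and 7.71 and 8.11 at 5 µM. The 5 µM CBP30 samples lay under DMSO and all 4 I-CBP112 samples lay above it. The fall with 5 µM CBP30 was small (log2 fold change -0.18, 95% interval -0.32 to -0.04, limma adjusted p = 0.0445) and was lost in 13 of 20 alternative fits, with adjusted p from 0.0254 to 0.203. With I-CBP112 the log2 fold changes of 0.21 and 0.19 were not called (adjusted p = 0.177 and 0.116).

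Counted together, 3 of the 5 tested members were called with 2 µM CBP30 (2 lower and 1 higher), where 32.1% of all tested genes were called, 16.3% lower and 15.9% higher. With 5 µM CBP30, 4 were called (3 lower and 1 higher), where 46.6% of all genes were called, 25.4% lower and 21.2% higher. With I-CBP112, 3 were called at each concentration (2 lower and 1 higher). There the background was 1.6% of all genes at 2 µM (0.735% lower and 0.868% higher) and 7.12% at 5 µM (3.28% lower and 3.84% higher). At 2 µM I-CBP112 the count dropped to 1, FGFR1, without either DMSO replicate or without the treated replicate 1. FGF13 and FGFR3 gave 2 of the lower calls in each treatment. Their fall was known when the members were chosen, so these counts were partly fixed in advance. Of the other tested members, FGFR1 was called in each treatment, FGFRL1 with 5 µM CBP30 only and FGFR4 in none. All genes had a median log2 fold change within 0.01 of 0 in each treatment.

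**Figure D2:**
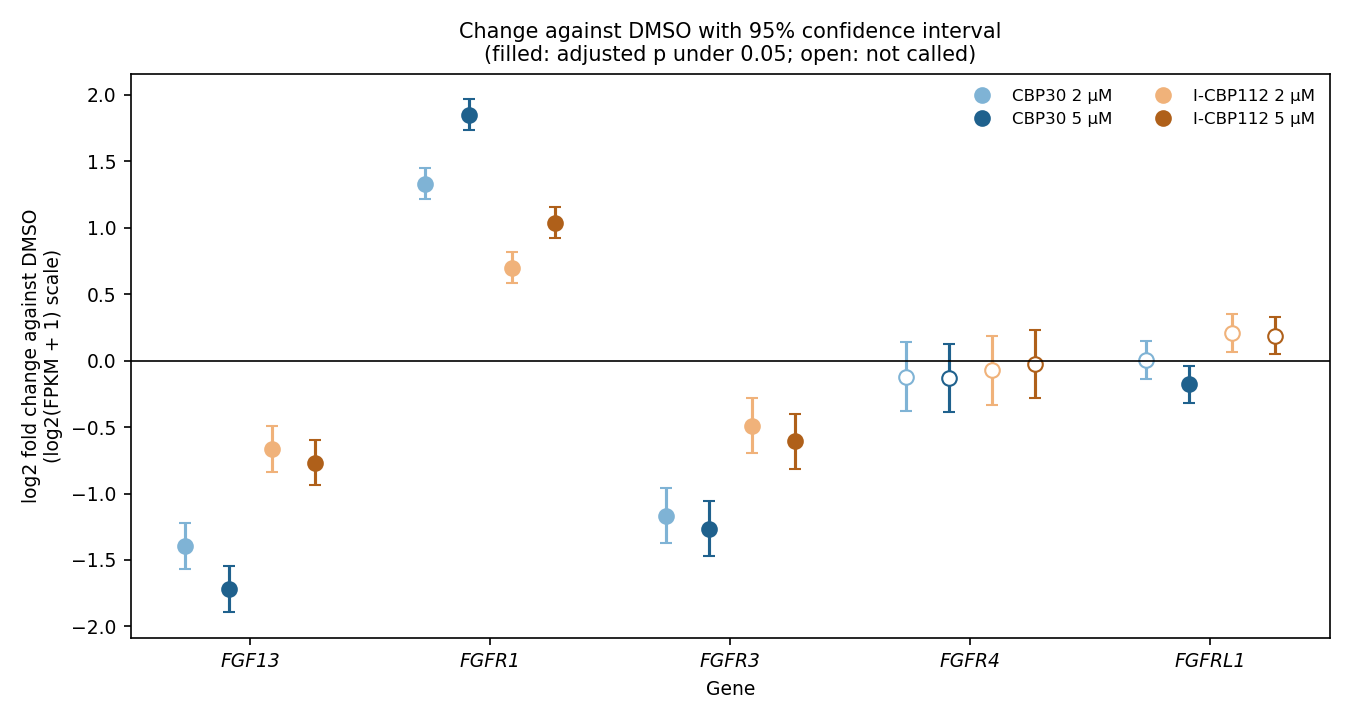
Log2 fold change against DMSO on the log2(FPKM + 1) scale (y axis) of the 5 tested members (x axis) in each treatment; bars are 95% confidence intervals from limma, filled points had an adjusted p under 0.05 and open points did not. FGFR1 lies between 0.70 and 1.85, FGF13 and FGFR3 lie between -1.72 and -0.49, and FGFR4 and FGFRL1 lie within 0.21 of 0.

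The balance among the receptor kinases moved with these changes. Summed over FGFR1 to FGFR4, the level was 16.1 ± 0.177 FPKM with DMSO (SD, n = 2). CBP30 gave 25.4 ± 0.530 FPKM at 2 µM and 34.0 ± 0.587 at 5 µM, and I-CBP112 gave 19.5 ± 0.0424 and 22.9 ± 0.0283. FGFR1 made up 44.5 ± 0.205% of this sum with DMSO, 76.9 ± 3.65% and 83.5 ± 0.785% with CBP30, and 62.7 ± 2.25% and 68.7 ± 0.573% with I-CBP112. The share of FGFR3 was 22.9 ± 2.03% with DMSO and 2.80 ± 0.376% with 5 µM CBP30, and that of FGFR4 was 32.0 ± 1.55% and 13.5 ± 0.424%. The ratio of FGFR1 to FGFR3 was 1.82 and 2.08 in the DMSO samples, 16.3 and 20.1 with 2 µM CBP30, and 33.2 and 27.1 with 5 µM CBP30. It was 5.58 and 4.92 with 2 µM I-CBP112 and 7.42 and 7.75 with 5 µM. The groups did not overlap in this ratio. The longest transcripts differ in length, at 6216 bases for FGFR1 and 4307 for FGFR3. The part of the length trend in the ratio was not tested. The fall of FGFR3 was known when the members were chosen. Its lower share and the higher ratio in the treated groups were thus partly fixed in advance. These sums and ratios describe mRNA, since protein was not measured.

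**Figure D3:**
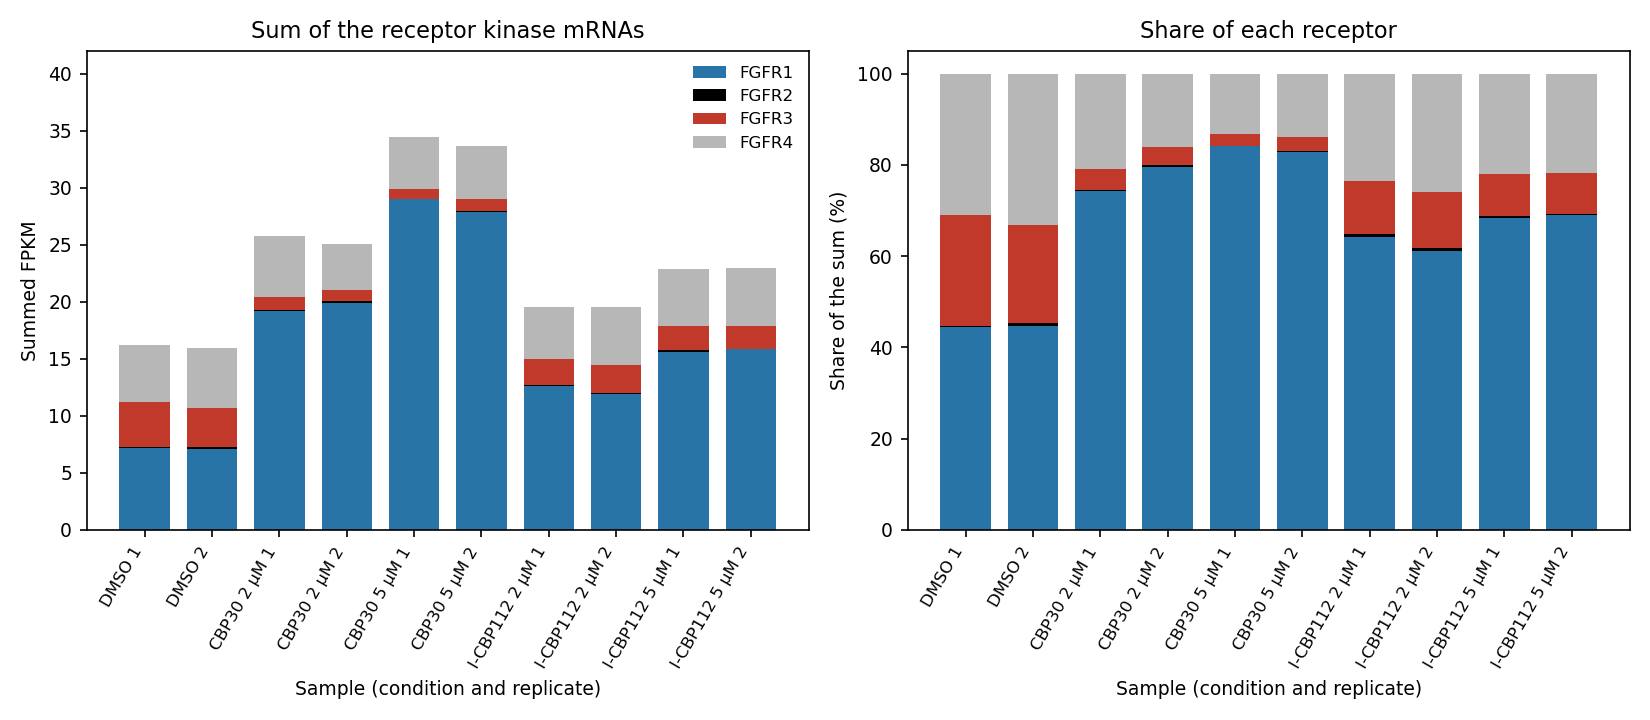
Summed FPKM of FGFR1 to FGFR4 in each sample (left, y axis from 0) and the share of each receptor in that sum (right, percent), by condition and replicate (x axis). FGFR1 takes up 44.4% and 44.7% of the sum in the DMSO samples and 84.0% and 82.9% in those with 5 µM CBP30, while FGFR3 shrinks from 24.4% and 21.5% to 2.53% and 3.06%.

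The concentrations were compared within each compound. From 2 to 5 µM CBP30, FGF13 fell by a further 0.33 on the log2 scale (95% interval -0.50 to -0.15, limma adjusted p = 0.0160). FGFR1 rose by a further 0.52 (0.40 to 0.63, adjusted p = 0.00131). Removing the length trend gave -0.76 for FGF13 by the longest transcript and -0.23 by the median length. For FGFR1 it gave 0.36 and 0.53, and all of these were called. With only the groups compared, limma called neither gene (adjusted p = 0.167 for FGF13 and 0.114 for FGFR1). FGFR3 was not called (-0.10, interval -0.30 to 0.11), nor was FGFR4 (-0.01, interval -0.27 to 0.24). FGFRL1 was lower by 0.18 at an adjusted p of 0.0486, a call lost in 15 of 20 alternatives. Thus 3 of 5 members were called (2 lower and 1 higher), where 38.9% of all genes were, 21.3% lower and 17.6% higher. Without replicate 1 of 5 µM CBP30 the count dropped to 1, FGFR1. From 2 to 5 µM I-CBP112, limma called 0 of 5 members against 0.0626% of all genes (0.00782% lower and 0.0547% higher), and 1, FGFR1, had an unadjusted p under 0.05. Its log2 difference was 0.34 (0.22 to 0.45, adjusted p = 0.167), and that of FGF13 was -0.10 (-0.27 to 0.07).

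The compounds were compared at matched concentrations, 2 pairs in all. The study describes I-CBP112 as the less potent inhibitor, so equal concentrations need not mean equal inhibition. At 2 µM, FGF13 was lower with CBP30 than with I-CBP112 by 0.73 on the log2 scale (95% interval -0.90 to -0.56, limma adjusted p = 0.00226) and FGFR3 by 0.68 (-0.89 to -0.47, adjusted p = 0.00552), while FGFR1 was higher by 0.63 (0.52 to 0.75, adjusted p = 0.000939). At 5 µM the differences were -0.95 (-1.13 to -0.78) for FGF13, -0.66 (-0.86 to -0.45) for FGFR3 and 0.81 (0.70 to 0.93) for FGFR1, all called. FGFRL1 was lower with CBP30 at 5 µM by 0.37 (-0.51 to -0.23, adjusted p = 0.00449), a call that held in all 20 alternatives, and was not called at 2 µM (-0.20, interval -0.34 to -0.06, adjusted p = 0.0595). FGFR4 was called at neither concentration, with intervals from -0.30 to 0.21 at 2 µM and from -0.36 to 0.15 at 5 µM. In all, 3 of 5 members were called at 2 µM, 2 lower and 1 higher with CBP30, against 15.6% of all genes (8.45% lower and 7.13% higher). At 5 µM 4 were called, 3 lower and 1 higher, against 31.4% (17.9% lower and 13.6% higher). At 2 µM, removing the length trend with the longest FGF13 transcript ended the FGF13 call (-0.42, limma adjusted p = 0.111). With only the groups compared, the 3 calls at 2 µM were lost in limma. The adjusted p was 0.1735 for FGF13, 0.1628 for FGFR1 and 0.1575 for FGFR3.

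The rest of the pathway was described by lists of its genes. Of 18 FGF ligands only FGF2 and FGF5 passed the filter. FGF2, a ligand made by many cultured cells, had means of 4.27 FPKM with DMSO and 3.52, 3.78, 4.0 and 3.74 with 2 and 5 µM CBP30 and 2 and 5 µM I-CBP112. FGF5 had 0.586 FPKM with DMSO and from 0.530 to 0.718 in the treated groups. In limma 0 ligands were called in any treatment, and 0 had an unadjusted p under 0.05. Of all tested genes, 32.1% and 46.6% were called with 2 and 5 µM CBP30. With I-CBP112 the shares were 1.6% and 7.12%, so 0 of 2 is not a result about the ligands. In alternative fits, 1 ligand was called with 2 µM CBP30 without its replicate 2, and 1 with 5 µM CBP30 with no filter or with the length trend removed.

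Of the 4 FGF homologous factors, FGF12 and FGF14 had at most 0.0889 FPKM in any sample. FGF11 was tested beside FGF13. It had means of 1.60 FPKM with DMSO, 1.71 and 1.27 with CBP30 and 1.62 and 1.42 with I-CBP112, and was not called (limma adjusted p from 0.201 to 0.990).

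Among 14 sodium channel subunits and the scaffold MAPK8IP2, which binds FGF homologous factors, 3 were tested. SCN9A, the sodium channel known for its part in pain sensation, measured 5.19 and 5.17 FPKM with DMSO, 8.48 and 13.1 with 2 µM CBP30, and 20.6 and 21.1 with 5 µM CBP30. It rose with both CBP30 concentrations (log2 fold changes 0.90 and 1.82, limma adjusted p = 0.00722 and 0.000167). With I-CBP112 its means were 7.77 and 9.30 FPKM, called at 5 µM (0.74, adjusted p = 0.0432) and not at 2 µM (0.50, adjusted p = 0.230). MAPK8IP2 had a mean of 0.985 FPKM with DMSO and of 2.74, 1.99, 1.86 and 2.15 in the treatments, and was called in all but 2 µM I-CBP112 (adjusted p = 0.0839). The list thus had 2 of 3 tested genes higher and 0 lower with each CBP30 concentration and with 5 µM I-CBP112, where 15.9%, 21.2% and 3.84% of all tested genes were higher. At 2 µM I-CBP112 0 were called by limma, where 2 had an unadjusted p under 0.05, and without either sample of 2 µM CBP30 2 were called. The count at 5 µM I-CBP112 dropped to 0 without either DMSO replicate or either treated replicate, and to 1 without any 1 sample of 5 µM CBP30 or 2 µM I-CBP112. Removing the length trend gave 1 call with 2 µM I-CBP112 by the longest transcript, and 1 each with 5 µM CBP30 and 5 µM I-CBP112 by the median length. The median log2 fold change of the 3 genes was 0.90 and 0.59 with CBP30 and 0.50 and 0.67 with I-CBP112.

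Of 12 co-receptors and binding proteins, FIBP and FGFBP3 were tested. Of all tested genes, 32.1% and 46.6% were called with 2 and 5 µM CBP30. With I-CBP112 the shares were 1.6% and 7.12%, so counts among 2 genes are not a result about this list. The Klotho co-receptors were nearly absent, with at most 0.0113 FPKM for KL and 0.213 for KLB. FIBP, an intracellular FGF-binding protein, was called higher with 2 µM CBP30 (40.5 to 51.4 FPKM, limma adjusted p = 0.0301). The samples were 56.9 and 46.0, and the call was lost when any 1 sample outside that group was left out, while without replicate 2 of the group 2 genes were called. FGFBP3 had 1.59 FPKM with DMSO and between 1.42 and 1.95 in the treatments, with no call. In the other treatments 0 of the 2 genes were called or had an unadjusted p under 0.05 in limma, and without either sample of 2 µM CBP30 the 5 µM treatments had 1 call each.

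Heparan sulfate genes numbered 26, of which 13 were tested. With 5 µM CBP30, 8 were higher and 2 lower, and with 2 µM CBP30, 4 were higher and 2 lower. These were 10 and 6 of 13 genes, where 46.6% and 32.1% of all tested genes were called. With I-CBP112, 1 of 13 was called at each concentration, where 1.6% of all tested genes were called at 2 µM and 7.12% at 5 µM. The syndecans, membrane proteins that carry the chains, went in both directions. SDC2 rose from 0.351 FPKM to 1.42 and 2.27 with CBP30 and to 0.858 and 1.30 with I-CBP112 (limma adjusted p from 3.53e-05 to 0.0436), the only gene of the list called with I-CBP112. SDC4 rose from 4.77 to 8.19 and 10.3 FPKM with CBP30, whereas SDC3 fell from 8.51 to 6.43 and 7.01. Of the enzymes, NDST1, an N-sulfotransferase, fell from 16.5 to 10.8 and 12.5 FPKM with CBP30. HS2ST1, a 2-O-sulfotransferase, and GLCE, the C5-epimerase, rose with 5 µM CBP30, from 29.4 to 44.6 and from 7.60 to 12.1 FPKM. Neither was called in another treatment, but GLCE did not differ by call between 5 µM CBP30 and 5 µM I-CBP112 (adjusted p = 0.0807 in limma). HS6ST1, a 6-O-sulfotransferase, and EXT2, of the polymerase that extends the chain, rose with either CBP30 concentration. Over the 13 genes, the log2 fold change had a median of 0.06 and 0.36 with CBP30 and 0.07 and 0.08 with I-CBP112. Without DMSO replicate 1 the count at 5 µM CBP30 was 6, and the SDC2 call at 2 µM I-CBP112 was lost without any 1 sample other than those of 2 µM CBP30. Without either of those, 4 genes were called with 5 µM I-CBP112, and 2 with the length trend removed by the longest transcript.

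All 29 adaptors and effectors were tested. With 5 µM CBP30, 10 were higher and 4 lower, with 2 µM CBP30, 4 higher and 5 lower, and with I-CBP112, 0 at 2 µM and 1 higher at 5 µM. The 14 and 9 of 29 genes called with 5 and 2 µM CBP30 were close to the background of 46.6% and 32.1% of all tested genes, so the counts are not a result about these genes. With I-CBP112 the background was 1.6% at 2 µM and 7.12% at 5 µM, so 0 and 1 of 29 are not a result either. At 2 µM I-CBP112, 2 genes had an unadjusted p under 0.05. FRS2, the docking protein that receptor kinases of this family phosphorylate first, measured 3.52 FPKM with DMSO and rose to 6.05 with 5 µM CBP30 (limma adjusted p = 0.00243). PLCG1, the phospholipase, rose from 12.6 to 15.1 and 18.2 FPKM with 2 and 5 µM CBP30. In the PI3 kinase arm, the regulatory subunit PIK3R1 rose from 4.31 to 5.90 and 9.46 FPKM and the catalytic subunit PIK3CB fell from 24.3 to 16.6 and 14.5. The adaptors GAB2, from 32.9 to 22.2 and 22.3, and SHC1, from 30.3 to 21.3 and 22.4 FPKM, fell with both CBP30 concentrations. FRS3 was called higher with 2 µM CBP30 (2.22 to 3.24 FPKM). The median log2 fold change of the list was 0.03 and 0.14 with CBP30 and 0.06 and 0.01 with I-CBP112. These counts moved with single samples. Leaving out 1 sample gave from 3 to 21 calls at 2 µM CBP30 in place of 9, with 14 (5 lower and 9 higher) without its replicate 1 and 21 (14 lower and 7 higher) without its replicate 2. The balance of directions at 2 µM CBP30 thus changed with the library left out. With the length trend removed by the longest transcript, 14 (6 lower and 8 higher) were called there, 1 with 2 µM I-CBP112 and 4 with 5 µM I-CBP112, where the median transcript length gave 2. At 5 µM CBP30 the count was 9 without DMSO replicate 2 or without any 1 sample of 5 µM CBP30 or 5 µM I-CBP112. The single call with 5 µM I-CBP112 was lost without any 1 sample of DMSO, 5 µM CBP30 or 5 µM I-CBP112. Without either sample of 2 µM CBP30, 2 genes were called with 2 µM I-CBP112 and 6 with 5 µM.

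Feedback inhibitors and target genes numbered 18, of which 14 were tested. With 5 µM CBP30, 9 were higher and 2 lower, and with 2 µM CBP30, 7 were higher and 1 lower. I-CBP112 gave 1 higher at 2 µM and 5 higher and 1 lower at 5 µM. Of all tested genes, 5 µM CBP30 left 21.2% higher and 25.4% lower, 2 µM CBP30 15.9% and 16.3%, 2 µM I-CBP112 0.868% and 0.735%, and 5 µM I-CBP112 3.84% and 3.28%. SPRY4, a Sprouty inhibitor of the cascade, measured 17.1 and 17.9 FPKM with DMSO, 20.4 and 24.7 with 2 µM CBP30, and 35.1 and 36.0 with 5 µM CBP30. It rose by 0.98 on the log2 scale with 5 µM CBP30 (limma adjusted p = 0.000151) and by 0.43 with 5 µM I-CBP112 (adjusted p = 0.0308). The ETS factor ETV5, a transcriptional target of the cascade, rose from 12.3 to 18.6 and 23.9 FPKM with CBP30 and to 16.2 with 5 µM I-CBP112. ETV1 rose from 4.41 to 5.94 and 8.74 FPKM with CBP30, and PHLDA1 from 3.29 to 6.11 with 5 µM CBP30. Of the immediate early genes, EGR1 rose in all 4 treatments, from 76.8 to 118 and 99.2 FPKM with CBP30 and to 120 and 127 with I-CBP112. FOS was called in all but 2 µM I-CBP112 and IER2 with both CBP30 concentrations. CCND1, which encodes cyclin D1 and is 1 of the 2 genes lower with 5 µM CBP30, went the other way. It measured 4.41 and 4.31 FPKM with DMSO, 1.01 and 0.990 with 2 µM CBP30, 0.673 and 0.750 with 5 µM CBP30, and 2.23 and 2.95 with 5 µM I-CBP112, and was called lower in these 3 treatments. With 2 µM I-CBP112 it measured 3.29 and 3.28 FPKM, also under DMSO, and was not called. DUSP6, a phosphatase often read as a sign of MAP kinase activity, did not pass the filter, with at most 0.718 FPKM. The median log2 fold change of the 14 genes was 0.14 and 0.43 with CBP30 and 0.04 and 0.20 with I-CBP112. Without DMSO replicate 1 or 2, the count of 8 at 2 µM CBP30 became 3 or 4. With 5 µM I-CBP112 the count of 6 became 1 without DMSO replicate 1 or the treated replicate 1, 2 without DMSO replicate 2 or the treated replicate 2, and 3 without any 1 sample of 5 µM CBP30 or 2 µM I-CBP112. With 2 µM I-CBP112 the count of 1 became 5 without either sample of 2 µM CBP30 and 4 with the length trend removed by the longest transcript.

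**Figure D4:**
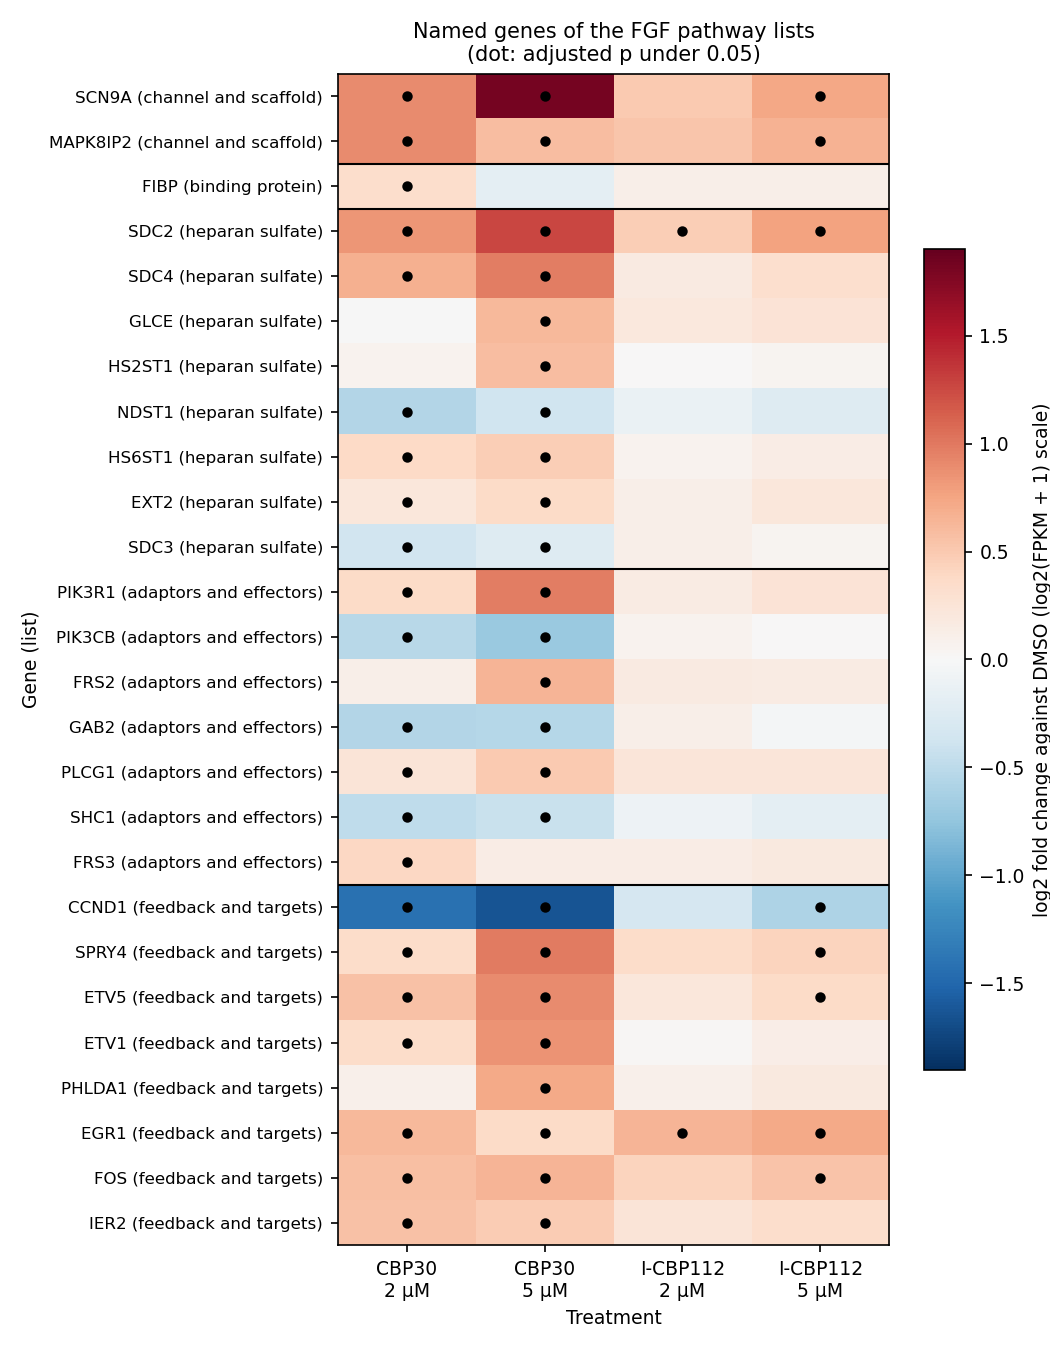
Log2 fold change against DMSO on the log2(FPKM + 1) scale (colour) of the named pathway genes (rows, grouped by list) in each treatment (columns); dots mark an adjusted p under 0.05 in limma. SCN9A, SDC2 and SPRY4 are higher with 5 µM CBP30 by 1.82, 1.28 and 0.98, and CCND1 is lower by 1.65.

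The nearest tested protein-coding genes on each side of the 6 members are 12 in number. With CBP30, 2 of them were lower and 1 higher at each concentration, and with 5 µM I-CBP112 1 was lower. The 3 of 12 with CBP30 stand beside 32.1% and 46.6% of all tested genes called at 2 and 5 µM, so they are not a result about these neighbours. With 2 µM I-CBP112 limma called 0, and 0 had an unadjusted p under 0.05. Of all tested genes, 1.6% were called there and 7.12% with 5 µM I-CBP112, so these counts of 0 and 1 of 12 are not a result either. LETM1, a mitochondrial ion exchanger gene 2.61 kb from the end of FGFR3, measured 18.7 and 18.3 FPKM with DMSO, and 13.2, 13.8, 13.5 and 12.8 in the CBP30 samples. Its fall with CBP30 (log2 fold changes -0.43 and -0.46, limma adjusted p = 0.00194 and 0.000599) was smaller than that of FGFR3, and with 5 µM I-CBP112 it was -0.25 (adjusted p = 0.0461). TACC3, 48.1 kb away on the other side of FGFR3, was not called (log2 fold changes from -0.09 to 0.19). On one side of FGF13 the nearest tested gene was RBMX, 1730 kb off, which fell with 5 µM CBP30 (-0.47, adjusted p = 0.000515). Around FGFR1, LETM2 rose as described and TACC1, 259 kb away, was not called. WDR11, 569 kb from FGFR2, was called lower with 2 µM CBP30 (-0.29, limma adjusted p = 0.0457), and the neighbours of FGFR4 and FGFRL1 were not called. The WDR11 samples with 2 µM CBP30 were 11.5 FPKM in replicate 1 and 14.4 in replicate 2, against 16.0 and 15.9 with DMSO. Most of that difference thus lay in the replicate with the length trend.

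By the root mean square difference of centred log2(FPKM + 1) over the 10 samples, the gene most like FGF13 was RAB3IL1 (0.0819), followed by TFAP2B (0.101), RFESD (0.103), TMOD1 (0.114) and SLC16A9 (0.119). RAB3IL1, an exchange factor for a RAB GTPase, had means of 5.29 FPKM with DMSO, 1.25 and 0.737 with CBP30, and 3.13 and 2.68 with I-CBP112. For FGFR3 the nearest gene was EPOR (0.0442), the erythropoietin receptor, with 6.84 FPKM with DMSO, 2.71 and 2.38 with CBP30, and 4.53 and 4.29 with I-CBP112. TTLL12, OR2AT4, KCNN4 and CAV2 followed, at 0.0814 to 0.0942. For FGFR1 it was the histone gene HIST1H2BH (0.0852), with 21.4 FPKM with DMSO, 60.9 and 81.0 with CBP30, and 38.7 and 51.9 with I-CBP112. TRIM6, HIST1H2BO, EPHB6 and SCPEP1 followed, at 0.116 to 0.132. The histone genes have near-identical copies, so their values are uncertain. For FGFRL1 the 5 nearest genes were ANKRD18DP, CCDC11, NUP107, SLC29A4 and DLX4, at 0.0365 to 0.0610. These likenesses are descriptions over samples that share their libraries. On this scale a small difference does not mean an equal fold change for genes with low values. With 5 µM CBP30, RAB3IL1 was at 13.9% of DMSO and FGF13 at 27.2%. OR2AT4 was at 0 FPKM there, and FGFR3 at 25.8% of DMSO.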

How the data were processed

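Per the labels and the study's methods, polyadenylated RNA of K562 cells was made into stranded libraries and sequenced as single reads of 50 bases. The submitters' processing notes name FastQC, TopHat2 2.0.10, Bowtie 1.0.0, SAMtools 0.1.19, Cufflinks 2.2.1 and Cuffnorm with the hg19 genome, and the study's methods name the Nextpresso pipeline. The authors deposited 1 table of FPKM with a column per sample, and the gene annotation is not given in the sources used here.

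On the log2(FPKM + 1) scale, 1 model of all 5 groups was fitted by limma 3.58.1 (R 4.3.3) to the genes averaging 0.5 FPKM or more. It had 5 residual degrees of freedom, eBayes with a trend contributed 2.15, and 8 comparisons were adjusted by Benjamini-Hochberg over 12788 genes. The fit was tested on simulated data. Tables and figures were made with pandas 2.3.3 and matplotlib 3.10.9 in Python 3.11.15. FPKM carry no counts, so precision rests on 2 samples a group, called biological replicates in the labels.

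The members and lists were chosen with earlier results of these data known. Named genes are the 6 members, up to 8 called genes per list with a mean of at least 1 FPKM, the nearest tested gene on each side, the 5 most alike genes and GATA1, KLF1 and HBG1. Other markers, FGF2, FGF5, FGF11, FGF12, FGF14, FGFBP3, KL, KLB and DUSP6 were named after their values were seen. A few genes that the rule or the marker lists hold are not reported here. Positions come from GENCODE on GRCh37, matched for 91.9% of symbols, with the longest annotated transcript as length. Promoters were taken for 5 members, because those on chromosome 8, where FGFR1 lies, were left out beforehand. The analysis was repeated with 0.1 as the pseudocount, without the filter, with a 5 FPKM filter, median centring, quantile normalization, removal of the length trend, eBayes without trend, only the groups compared, a replicate block, and each sample left out. Removal of the length trend with median transcript length was added after seeing the data.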

Additional observations from a re-analysis of the deposited data

How the results depend on the processing

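Over the 20 alternatives, 703 of 784 fold changes of members kept their direction and side of the threshold, 59 lost a call, 7 gained one and 15 changed sign. The sign changes were all of uncalled values. For FGFR4, 5 against 2 µM CBP30 became 0.0814 or 0.0689 with the length trend removed by longest or median transcript, and CBP30 against I-CBP112 at 2 µM became 0.00874 with quantile normalization. For FGFRL1, 2 µM CBP30 against DMSO became -0.00476 and -0.0149 with the same 2 length corrections. Leaving out 1 sample moved FGFR4 from -0.293 to 0.0539 (2 µM CBP30 against DMSO), -0.0583 to 0.00571 (5 µM I-CBP112 against DMSO), -0.186 to 0.161 (5 against 2 µM CBP30), -0.00599 to 0.102 (5 against 2 µM I-CBP112) and -0.219 to 0.128 (CBP30 against I-CBP112 at 2 µM). It moved FGFRL1 from -0.0304 to 0.0368 (2 µM CBP30 against DMSO) and from -0.0619 to 0.0251 (5 against 2 µM I-CBP112).

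The count of members called with 5 µM CBP30 was 2 with a filter at 5 FPKM, where 3 members were tested. With only the groups compared, a fit with fewer samples, it was 0 for 2 µM I-CBP112, 0 for 5 against 2 µM CBP30 and 0 for CBP30 against I-CBP112 at 2 µM. Without a filter it was 1 for 5 against 2 µM I-CBP112, and the cause was not tested. Leaving out 1 sample gave 3 to 4 for 2 µM CBP30, 3 to 4 for 5 µM CBP30, 1 to 3 for 2 µM I-CBP112 and 2 to 4 for 5 µM I-CBP112. It gave 1 to 4 for 5 against 2 µM CBP30, 0 for 5 against 2 µM I-CBP112, and 3 and 4 for CBP30 against I-CBP112 at 2 and 5 µM. A lone remaining sample was assumed to vary like the other groups.

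Same-numbered samples did not deviate together (correlations between groups from -0.0681 to 0.0939), and whether they were handled together is not stated, so the number was not treated as a pairing. A fit with a replicate block called 3, 3, 2 and 3 members against DMSO (2 and 5 µM CBP30, 2 and 5 µM I-CBP112), 2 and 0 between concentrations, and 3 and 4 between compounds. Of 560 list counts, 448 stayed within 1.5 times and 112 did not. With 2 samples a group and no read counts, small differences such as those of FGFR4 and FGFRL1 lie at the limit of this design.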
